A study of Mus musculus with 12 samples.

Results

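The 42 genes described here encode the machinery that copies DNA and the factors that carry a cell into S phase. They were chosen by gene symbol, as a list of replication and S-phase genes, with earlier results of these data known. All 42 were found among the 30452 genes of the count table, each symbol occurred once, and all 42 were among the 19189 genes abundant enough to test. They were measured by RNA sequencing of mouse sciatic nerve 14 days after injury, in the bridge, the regenerating tissue between the nerve ends, and in the distal stump, the nerve beyond it. Control mice (CTL) carried P0-CreERT2:YFPfl/fl:Nf1+/+, and Nf1 KO mice carried P0-CreERT2:YFPfl/fl:Nf1fl/fl. Both genotypes therefore hold the Cre and the YFP reporter, and tamoxifen was used to remove Nf1 from myelinating Schwann cells. By this design the other cells of the tissue keep the gene, which counts of whole tissue cannot show. Each sample combined 6 nerve fragments of 0.5 mm from multiple mice, so that a library averages over animals, and 3 samples described as independent were sequenced per region and genotype, 12 libraries in 4 groups. The comparisons ask how loss of Nf1 changes each region of the injured nerve.

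Before a cell divides, the origin recognition complex, CDC6 and CDT1 load the ring of MCM proteins onto DNA in G1, and geminin blocks a second loading. In S phase CDC45 and the GINS complex turn the ring into a running helicase, primase and the DNA polymerases make new strands on the sliding clamp PCNA, and ribonucleotide reductase supplies deoxynucleotides. Many of these genes are targets of E2F factors, which act once cyclin E and its kinase have released them from the RB family. In an uninjured adult nerve Schwann cells rarely divide, and after injury Schwann cells, fibroblasts, macrophages and endothelial cells re-enter the cell cycle.

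Library totals ran from 18821445 to 38981819 counts, and 3 counts corresponded to 0.0771 to 0.154 CPM (counts scaled to the same total, on library sizes scaled by the TMM method). The targeted gene Nf1 was lower in every Nf1 KO library than in every CTL library of its region (bridge -0.40, SE 0.10, adjusted p = 0.022; distal stump -0.60, SE 0.10, adjusted p = 0.0056), with counts that include exons outside the deleted part. The bridge call of Nf1 was lost in 6 of 20 alternative settings of the fit, 4 of which left out 1 library. Its distal call held in all 20. Schwann cell markers were detected in all groups. The summed level of 7 of them was 1377 to 1440 CPM in the CTL bridge and 934 to 1061 in the Nf1 KO bridge, with 3 of 7 lower by the test, and 5 of 6 myelin genes were lower in each region. Libraries also differed in composition. The summed level of 6 skeletal muscle genes was 8046, 1053 and 7088 CPM in CTL bridge libraries 1, 2 and 3, 415 to 1497 in the Nf1 KO bridge, and 2590 in Nf1 KO distal stump 1 against 13.7 to 277 in the other distal libraries. Neutrophil genes summed to 1187 CPM in Nf1 KO bridge 1, whereas its 2 replicates had 85.2 and 112. One gene took 24.5% of the counts of Nf1 KO distal stump 1. The sum of 4 Y-linked genes was 102 to 216 CPM in the CTL bridge and 41.2 to 147 in the Nf1 KO bridge, and in the distal stump 116 to 197 in CTL and 39.8 to 106 in Nf1 KO. Of 6 perineurial genes 5 were lower in the Nf1 KO bridge, with a median log2 fold change of -0.89, and 4 in the distal stump, with a median of -0.55. Of 6 adipocyte genes 5 were lower in the bridge (median -1.08) and 0 in the distal stump. The sex of the pooled mice is not in the labels.

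The replication genes were expressed in every library. None had a count of 0 anywhere, and the least abundant held 1936 counts over the 12 libraries. On a scale of CPM per kilobase of the longest transcript, averaged over the 12 libraries, Pcna stood highest at 100.9, followed by the GINS subunit gene Gins4 at 27.3, the clamp loader gene Rfc4 at 21.6, Mcm7 at 20.5 and the thymidine kinase gene Tk1 at 16.7. The lowest were Cdc6 at 1.06 and Mcm10 at 1.09. Summed over the 42 genes, the CPM level was 812 to 876 in the CTL bridge, 884 to 977 in the CTL distal stump, 1035 to 1154 in the Nf1 KO bridge and 1068 to 1094 in the Nf1 KO distal stump. Both Nf1 KO groups stood above both CTL groups in every library. The mean CPM was lowest in the CTL bridge for 33 of the 42 genes, in the CTL distal stump for 8 and in the Nf1 KO bridge for 1, Orc1. It was highest in the Nf1 KO bridge for 20 genes, in the Nf1 KO distal stump for 21 and in the CTL bridge for 1, Rfc4. In these bulk samples fewer cells in S phase and less RNA of these genes per cell cannot be told apart.

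**Figure D1:**
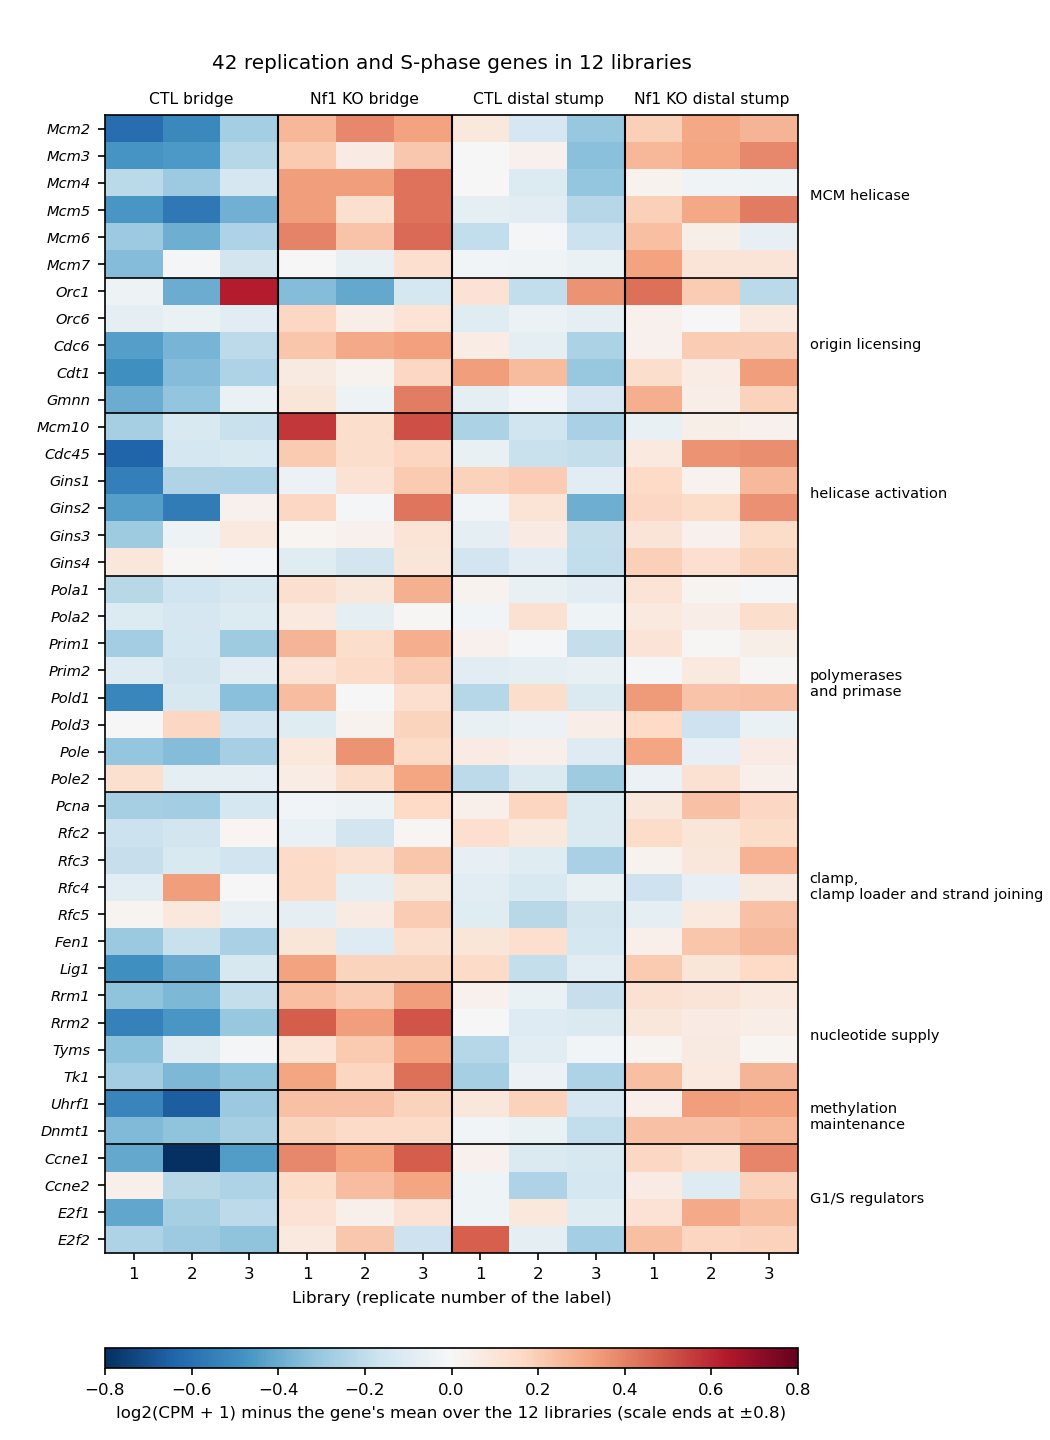
Each row is 1 of the 42 genes, grouped by role, and each column 1 of the 12 libraries; colour gives log2(CPM + 1) minus the gene's mean over the 12 libraries. The CTL bridge columns are mostly blue and the Nf1 KO bridge columns mostly red, with Orc1, Gins4 and Rfc4 among the exceptions.

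The promoters are shown because these genes are known as E2F targets and many of them rose together. A search for the 8-base E2F words TTTCCCGC, TTTCGCGC, TTTGCCGC and TTTGGCGC on both strands, with overlaps allowed, was made in RefSeq promoter windows of 300 bases (GRCm38.p6, 250 before to 50 after the start). Such windows were held for 33 of the 42 genes. At least 1 word was found in 17 of those 33 genes (51.5%), against 2.60% of all 27025 genes with a window and 4.02% of the 12517 tested genes with one. The first 6 stretches hold words and come from genes of 4 roles, MCM helicase, origin licensing, polymerase and clamp loader, and the last 2 are from the genes with the largest rises in the bridge, which held no word in their windows. Capitals mark E2F words, read 5′ to 3′ on the strand of the gene.
Mcm5, chr8:75109329-75109398, plus strand: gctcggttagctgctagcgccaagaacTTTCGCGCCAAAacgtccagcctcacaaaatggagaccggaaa
Mcm6, chr1:128359736-128359835, minus strand: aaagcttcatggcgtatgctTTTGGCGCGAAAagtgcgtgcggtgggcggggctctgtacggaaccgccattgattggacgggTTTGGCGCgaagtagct
Orc1, chr4:108579374-108579453, plus strand: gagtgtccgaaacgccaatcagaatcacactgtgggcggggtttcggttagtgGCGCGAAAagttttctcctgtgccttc
Cdc6, chr11:98907981-98908050, plus strand: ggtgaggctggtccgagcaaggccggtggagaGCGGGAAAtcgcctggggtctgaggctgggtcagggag
Pola1, chrX:93632256-93632325, minus strand: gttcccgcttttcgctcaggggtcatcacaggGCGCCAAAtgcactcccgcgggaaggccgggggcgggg
Rfc3, chr5:151651209-151651268, minus strand: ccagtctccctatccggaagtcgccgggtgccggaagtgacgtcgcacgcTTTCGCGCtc
Ccne1, chr7:38107491-38107590, minus strand: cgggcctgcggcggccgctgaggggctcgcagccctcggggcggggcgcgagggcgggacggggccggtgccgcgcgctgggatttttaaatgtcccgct
Rrm2, chr12:24708154-24708253, plus strand: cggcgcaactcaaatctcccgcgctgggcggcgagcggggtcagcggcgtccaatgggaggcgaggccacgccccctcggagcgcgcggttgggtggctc
The Mcm6 stretch holds 3 words, of which 2 overlap on opposite strands, and the Mcm5 stretch holds 2 overlapping words. In the 17 genes with a word, 10 rose in the Nf1 KO bridge with a median log2 fold change of 0.48. In the 16 without one, 11 rose with a median of 0.46, where 7.81% of all tested genes rose. Of the 20 mitosis genes listed beside them, 17 had a window, and 1 of these held an E2F word (5.88%). The 6-base words TTTGAA and TTCGAA, known from promoters of late cell cycle genes, were in 76.5% of the mitosis windows, 24.2% of the replication genes with a window and 21.7% of all genes. A match is a description of the letters and not a binding site.

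In the Nf1 KO bridge genes of every step of replication were higher than in the CTL bridge. Of the 42 genes, 27 (64.3%) were higher and 0 lower (adjusted p under 0.05), where 7.81% of all tested genes were higher and 6.76% lower. The median log2 fold change was 0.46, against -0.0039 over all tested genes, and 39 values were above 0. In 32 genes every Nf1 KO bridge library was above every CTL bridge library, a pattern seen in 17.8% of all tested genes. The largest rises were those of Ccne1 at 1.06 and Rrm2 at 0.92, on the log2 scale. Of the 27 calls, 11 held in all 20 alternative settings, 12 of which leave out 1 library, and 8 were lost only when CTL bridge 1 and 3 were left out together. The other 8, Rfc3, Ccne2, Tyms, Gins1, Pold1, Orc6, Gmnn and Cdc45, were lost in 3 to 15 settings. Muscle RNA was high in CTL bridge libraries 1 and 3. With the muscle-rich CTL bridge libraries 1 and 3 both left out, 11 of the 42 genes passed the threshold, where 1.94% of all genes were then called higher. With Y-linked expression as a covariate the count was 23, where 6.10% of all genes were called higher. Neutrophil genes were high in Nf1 KO bridge 1, without which the count was 23, where 4.78% of all genes were called higher. Myelin genes (median log2 fold change -0.87), perineurial genes and adipocyte genes were lower in the same comparison, 5 of 6 each. So were 3 of 7 Schwann cell genes. The part of these 4 lists in the result was not tested.

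Fewer of these genes passed the test in the distal stump. There 6 genes (14.3%) were higher and 0 lower, against 4.45% and 3.69% of all tested genes. The 6 were Mcm3, Mcm5, Gins4, Rfc3, Tk1 and Dnmt1, and 5 of them also rose in the bridge. All 42 values were above 0, with a median of 0.20 against -0.0014 over all tested genes, and in 22 genes every Nf1 KO library was above every CTL library, a pattern of 13.9% of all tested genes. The log2 fold change was larger in the bridge for 34 of the 42 genes. The distal count rests on single libraries. It was 1 without CTL distal stump 3 or without Nf1 KO distal stump 3, and 3 without CTL distal stump 1 or without Nf1 KO distal stump 2. In those fits 2.58% to 2.61% of all genes were called higher. Without the muscle-rich Nf1 KO distal stump 1 the count was 4, where 3.88% of all genes were called higher. With Y-linked expression as a covariate it was 5, where 3.02% were called higher. Myelin genes, 5 of 6 with a median log2 fold change of -0.66, and perineurial genes, 4 of 6, were lower distally as well. In addition 3 of 6 endothelial genes were lower and 3 of 6 fibroblast genes higher. The part of these lists in the result was not tested. Across the 42 genes the log2 fold changes of the 2 regions, which have separate CTL libraries, had a Spearman rho of 0.487, as a description over genes that are not independent.

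**Figure D2:**
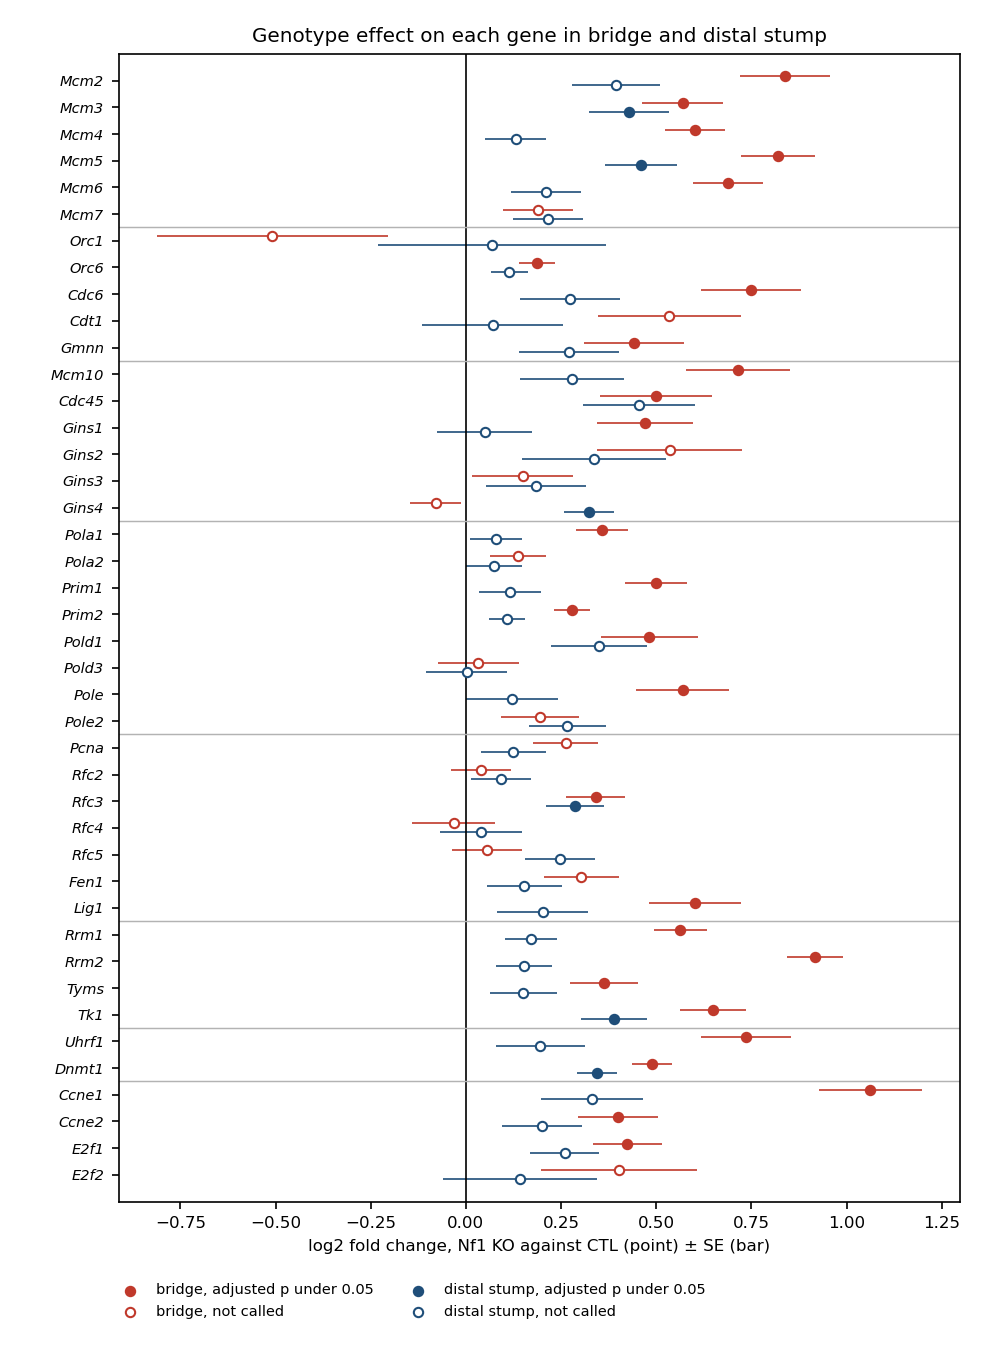
Points give the log2 fold change of Nf1 KO against CTL with its SE for each of the 42 genes, red for the bridge and blue for the distal stump, filled where the adjusted p was under 0.05. Filled red points number 27 and filled blue points 6, and all filled points lie to the right of 0.

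The MCM helicase genes encode the 6 subunits of the ring that unwinds DNA. In the bridge 5 of 6 rose, where 7.81% of all tested genes rose, with a median log2 fold change of 0.65. Mcm5 (chromosome 8, 75109569 to 75128439) was at 13.5, 12.5 and 14.3 CPM in CTL bridge and 24.2, 20.9 and 26.1 in the Nf1 KO bridge (log2 fold change 0.82 with an SE of 0.10, adjusted p = 0.00082). Its distal levels were 17.96, 17.9 and 16.05 CPM in CTL and 21.8, 23.8 and 25.7 in Nf1 KO (log2 fold change 0.46 with an SE of 0.10, adjusted p = 0.016). In each region the groups did not overlap, and the CTL bridge was the lowest of the 4 groups. Mcm2 rose by 0.84 (SE 0.12), Mcm6 by 0.69 (SE 0.09), Mcm4 by 0.60 (SE 0.08) and Mcm3 by 0.57 (SE 0.11) on the log2 scale in the bridge. Of these, Mcm3 also rose in the distal stump, by 0.43 (SE 0.11, adjusted p = 0.032). Mcm7, the most abundant of the 6, was the exception. It was at 47.2, 59.8 and 54.5 CPM in the CTL bridge and 60.3, 57.8 and 66.4 in the Nf1 KO bridge (log2 fold change 0.19 with an SE of 0.09, adjusted p = 0.20), and the groups overlapped through CTL bridge 2. Its distal levels were 59.3, 59.2 and 58.1 CPM in CTL and 75.5, 64.98 and 64.8 in Nf1 KO (log2 fold change 0.22 with an SE of 0.09, adjusted p = 0.19), groups that did not overlap. The ratio of Mcm7 to the mean CPM of the other 5 was 2.65 to 3.48 in the CTL bridge and 2.04 to 2.15 in the Nf1 KO bridge, without overlap, and 2.61 to 2.98 and 2.44 to 2.79 in the distal groups. This ratio was chosen after the values were seen. Mcm7 also hosts the microRNA genes Mir25 and Mir93 and shares exonic bases with Ap4m1 and Cops6 on the opposite strand.

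Of the 5 origin licensing genes 3 rose in the bridge and 0 in the distal stump, against 7.81% and 4.45% of all tested genes. Cdc6 (chromosome 11, 98907801 to 98923940), the ATPase that loads the MCM ring, was at 3.43, 3.64 and 4.19 CPM in the CTL bridge and 6.01, 6.41 and 6.54 in the Nf1 KO bridge (log2 fold change 0.75 with an SE of 0.13, adjusted p = 0.0049). All Nf1 KO bridge libraries were above all CTL bridge libraries. In the distal stump Cdc6 was at 5.26, 4.71 and 4.04 CPM in CTL and 5.15, 5.91 and 5.87 in Nf1 KO (log2 fold change 0.27 with an SE of 0.13, adjusted p = 0.25), and the groups overlapped. Orc6, the smallest subunit of the origin recognition complex and the most abundant gene of this role, varied little between libraries. Its bridge values were 20.1, 20.4 and 19.9 CPM in CTL and 23.9, 22.02 and 22.95 in Nf1 KO (log2 fold change 0.19 with an SE of 0.05, adjusted p = 0.027). Its distal values were 19.8, 20.5 and 20.01 CPM in CTL and 21.8, 21.1 and 22.4 in Nf1 KO (log2 fold change 0.11 with an SE of 0.05, adjusted p = 0.18). Neither pair of groups overlapped, and only the bridge difference passed the threshold, a call lost in 9 of 20 alternative settings. Gmnn, the licensing inhibitor geminin, rose by 0.44 in the bridge (SE 0.13, adjusted p = 0.048), close to the threshold and lost in 13 of 20. Its partner Cdt1 had 0.53 (SE 0.19, adjusted p = 0.085), and the ratio of Cdt1 to Gmnn, 0.306 to 0.343 in the CTL bridge, overlapped with 0.306 to 0.379 in the Nf1 KO bridge. Orc1, the largest subunit of the origin complex, was chosen for description after its values were seen. It varied widely between libraries, at 5.32, 3.93 and 9.04 CPM in the CTL bridge and 4.10, 3.89 and 4.89 in the Nf1 KO bridge (log2 fold change -0.51 with an SE of 0.30, adjusted p = 0.30), where CTL bridge 3 was the highest. Without CTL bridge 1 and 3 the log2 fold change turned to 0.13.

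**Figure D3:**
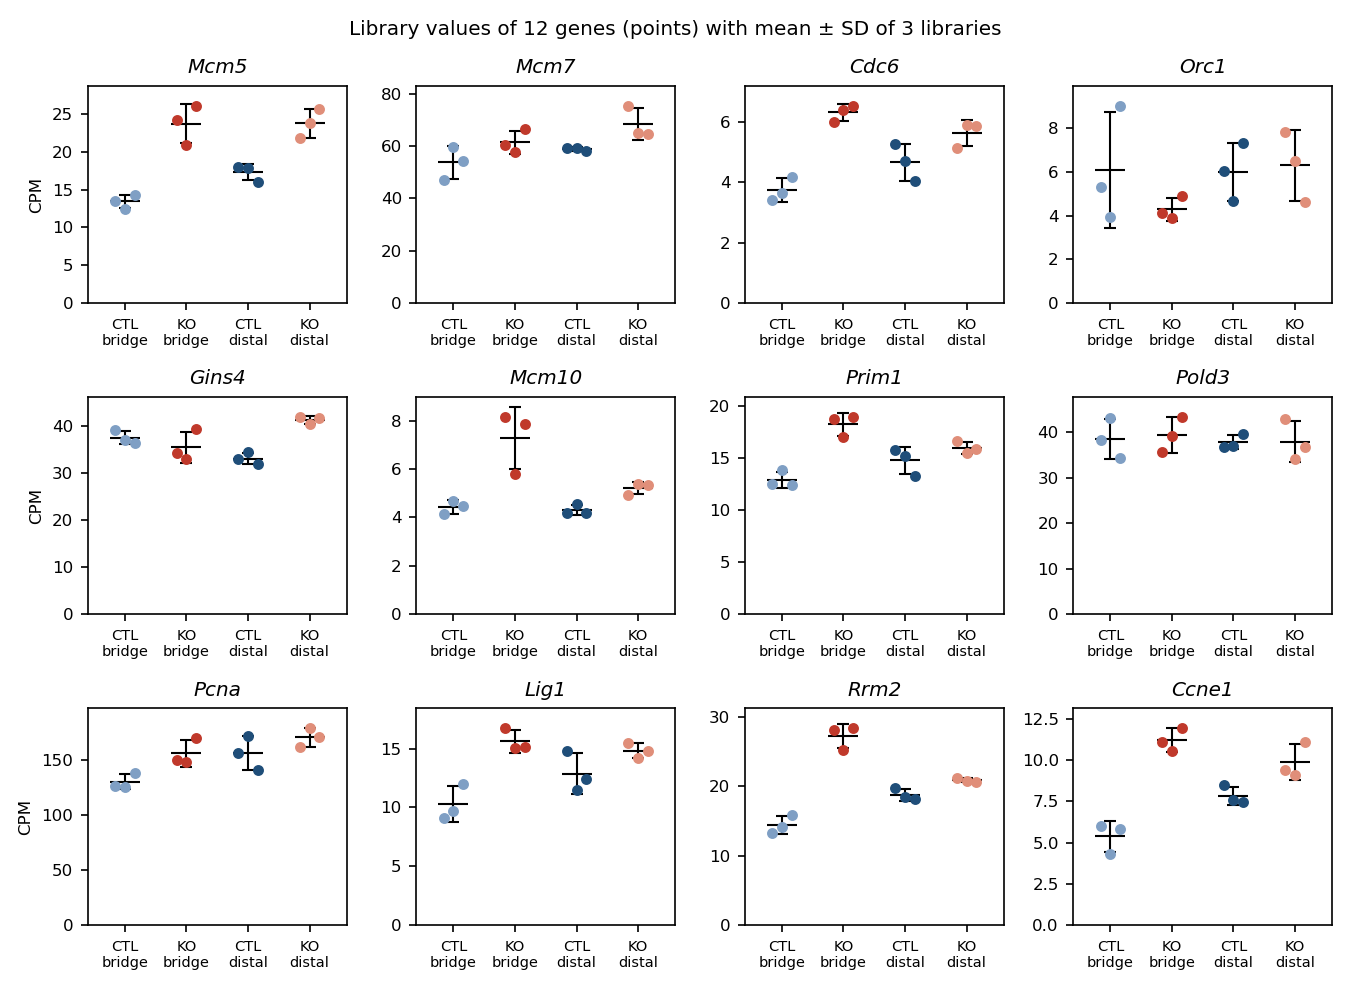
CPM in each library (points) with mean and SD of 3 libraries (black) for 12 of the genes, by genotype and region, with axes from 0. Mcm5, Cdc6, Mcm10, Prim1, Lig1, Rrm2 and Ccne1 have no overlap between the bridge groups, whereas Mcm7, Orc1, Gins4 and Pold3 do.

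Among the 6 helicase activation genes, 3 rose in the bridge and 1, a different gene, in the distal stump. Over all tested genes the shares were 7.81% and 4.45%. Mcm10 (chromosome 2, 4989714 to 5012791), which helps start the helicase, was at 4.15, 4.68 and 4.46 CPM in the CTL bridge and 8.17, 5.82 and 7.85 in the Nf1 KO bridge (log2 fold change 0.71 with an SE of 0.14, adjusted p = 0.0073). Its distal values were 4.19, 4.55 and 4.17 CPM in CTL and 4.95, 5.39 and 5.33 in Nf1 KO (log2 fold change 0.28 with an SE of 0.14, adjusted p = 0.26). The groups did not overlap in either region, and Nf1 KO bridge 2 was the lowest of its group. Gins4 (chromosome 8, 23226616 to 23237659) was in the bridge at 39.2, 36.98 and 36.5 CPM in CTL and 34.2, 33.04 and 39.3 in Nf1 KO, with overlapping groups (log2 fold change -0.08 with an SE of 0.07, adjusted p = 0.48). Distally Gins4 rose from 32.9, 34.4 and 31.96 CPM to 41.99, 40.4 and 41.7 (log2 fold change 0.32 with an SE of 0.07, adjusted p = 0.015), without overlap. Cdc45 (0.50, SE 0.15, adjusted p = 0.046) and Gins1 (0.47, SE 0.13, adjusted p = 0.031) rose in the bridge, with calls lost in 15 and 7 of 20 alternative settings. Gins2 had 0.54 (adjusted p = 0.089) and Gins3 0.15 (adjusted p = 0.51). The 4 subunits of the GINS complex therefore ranged from -0.08 to 0.54 in the same comparison. Of the exonic bases of Gins2, 67.3% are shared with Gse1 on the opposite strand, and whether the counting used strand is not given in the sources used here.

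Of the 8 polymerase and primase genes 5 rose in the bridge and 0 in the distal stump, against 7.81% and 4.45% of all tested genes. Their median log2 fold change in the bridge was 0.32. Prim1 (chromosome 10, 128015168 to 128030037), the catalytic primase subunit, was at 12.5, 13.9 and 12.4 CPM in the CTL bridge and 18.8, 17.04 and 19.01 in the Nf1 KO bridge (log2 fold change 0.50 with an SE of 0.08, adjusted p = 0.0035). The groups were well apart there, whereas its distal values of 15.8, 15.3 and 13.3 CPM in CTL and 16.7, 15.5 and 15.9 in Nf1 KO overlapped (log2 fold change 0.12 with an SE of 0.08, adjusted p = 0.45). Prim2, the other primase subunit, rose by 0.28 (SE 0.05) and Pola1, the catalytic subunit of polymerase alpha, by 0.36 (SE 0.07), while the accessory subunit gene Pola2 had 0.14 (adjusted p = 0.25). Pold1, the catalytic subunit of polymerase delta, was at 9.52, 12.8 and 11.01 CPM in the CTL bridge and 16.96, 14.1 and 15.6 in the Nf1 KO bridge (log2 fold change 0.48 with an SE of 0.13, adjusted p = 0.030), a call lost in 7 of 20 alternative settings. In the distal stump it had the smallest p of its role, with 11.9, 15.7 and 12.9 CPM in CTL and 18.1, 16.7 and 16.8 in Nf1 KO, and did not pass (log2 fold change 0.35 with an SE of 0.13, adjusted p = 0.13). Its accessory subunit gene Pold3, the most abundant of the 8, showed no separation in the bridge, at 38.2, 43.04 and 34.3 CPM in CTL and 35.7, 39.02 and 43.4 in Nf1 KO (log2 fold change 0.03 with an SE of 0.11, adjusted p = 0.89). Its distal values were 36.7, 37.04 and 39.7 CPM in CTL and 42.8, 34.04 and 36.8 in Nf1 KO, overlapping (log2 fold change 0.00). Pole, the catalytic subunit of polymerase epsilon, rose by 0.57 (SE 0.12, adjusted p = 0.012) and its accessory subunit gene Pole2 had 0.19 (adjusted p = 0.24). The difference between catalytic and accessory subunits was noticed in the values and was not tested. It did not hold for primase, where Prim2 rose as well as the catalytic subunit gene Prim1.

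The sliding clamp, its loader and the enzymes that join strands had the smallest share of rises in the bridge among the roles, 2 of 7. In the distal stump 1 of 7 rose. The shares over all tested genes were 7.81% in the bridge and 4.45% in the distal stump. Pcna (chromosome 2, 132249162 to 132253314), the clamp itself, was at 126, 126 and 138 CPM in the CTL bridge and 149.8, 148 and 169.9 in the Nf1 KO bridge. The groups did not overlap, but the difference did not pass the test (log2 fold change 0.26 with an SE of 0.09, adjusted p = 0.067). The distal values of Pcna were 156, 172 and 141 CPM in CTL and 162, 179 and 170.4 in Nf1 KO, overlapping (log2 fold change 0.13 with an SE of 0.09, adjusted p = 0.44). Lig1 (chromosome 7, 13277283 to 13311433), the ligase that seals Okazaki fragments, rose from 9.11, 9.73 and 11.99 CPM to 16.8, 15.1 and 15.1 in the bridge (log2 fold change 0.60 with an SE of 0.12, adjusted p = 0.0089), with all Nf1 KO libraries higher. Its distal values, 14.8, 11.5 and 12.4 CPM in CTL and 15.4, 14.2 and 14.8 in Nf1 KO, overlapped (log2 fold change 0.20 with an SE of 0.12, adjusted p = 0.35). Rfc3, a clamp loader subunit, was the only gene of this role called in both regions. It was at 17.2, 17.98 and 17.5 CPM in CTL and 22.1, 21.5 and 23.1 in Nf1 KO in the bridge (log2 fold change 0.34 with an SE of 0.08, adjusted p = 0.016). Distally it was at 18.8, 18.4 and 16.3 CPM in CTL and 20.1, 21.02 and 24.05 in Nf1 KO (log2 fold change 0.29 with an SE of 0.08, adjusted p = 0.046), a call lost in 17 of 20 alternative settings. The other loader subunit genes had 0.04 (Rfc2), -0.03 (Rfc4) and 0.06 (Rfc5) in the bridge, all with overlapping groups. Fen1, the flap nuclease, had 0.30 (adjusted p = 0.067). Rfc4 shares 12.7% of its exonic bases with the abundant Eif4a2 on the opposite strand, at 634 CPM, and Fen1 shares 78.8% with the antisense gene Gm10143.

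All 4 nucleotide supply genes rose in the bridge and 1 rose in the distal stump, against 7.81% and 4.45% of all tested genes. Their median log2 fold change in the bridge was 0.61. Rrm2 (chromosome 12, 24708241 to 24714146), the S-phase subunit of ribonucleotide reductase, had the smallest adjusted p of the 42 genes. It was at 13.3, 14.1 and 15.9 CPM in the CTL bridge and 28.1, 25.2 and 28.4 in the Nf1 KO bridge (log2 fold change 0.92 with an SE of 0.07, adjusted p = 0.00015). In the distal stump it was at 19.8, 18.4 and 18.2 CPM in CTL and 21.2, 20.8 and 20.6 in Nf1 KO (log2 fold change 0.15 with an SE of 0.07, adjusted p = 0.25). The distal groups were apart but close, and they lay between the CTL bridge and the Nf1 KO bridge. Rrm1, the large subunit of the same enzyme, rose as well (log2 fold change 0.56 with an SE of 0.07, adjusted p = 0.00095), and the ratio of Rrm2 to Rrm1 was 0.474 to 0.515 in the CTL bridge and 0.619 to 0.672 in the Nf1 KO bridge. Distally that ratio was 0.541 to 0.587 in CTL and 0.546 to 0.552 in Nf1 KO. Tk1 (chromosome 11, 117815526 to 117826092), which salvages thymidine, rose in both regions. Its bridge values were 33.6, 31.7 and 32.5 CPM in CTL and 51.3, 46.2 and 55.9 in Nf1 KO (log2 fold change 0.65 with an SE of 0.09, adjusted p = 0.0014). Its distal values were 33.9, 39.6 and 34.3 CPM in CTL and 48.5, 43.2 and 49.6 in Nf1 KO (log2 fold change 0.39 with an SE of 0.09, adjusted p = 0.021). Neither pair of groups overlapped. Tyms, the thymidylate synthase gene, rose by 0.36 in the bridge (SE 0.09, adjusted p = 0.022), a call lost in 6 of 20 settings.

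Both genes of methylation maintenance, which copies the methyl marks of the parent strand behind the fork, rose in the bridge. There 7.81% of all tested genes rose, and 4.45% in the distal stump. Dnmt1 (chromosome 9, 20907209 to 20959888), the maintenance methyltransferase, was at 26.2, 26.8 and 27.9 CPM in the CTL bridge and 38.3, 37.6 and 37.6 in the Nf1 KO bridge (log2 fold change 0.49 with an SE of 0.05, adjusted p = 0.00054). The distal stump also showed a rise, from 33.1, 32.5 and 29.3 CPM to 39.9, 39.8 and 40.8 (log2 fold change 0.34 with an SE of 0.05, adjusted p = 0.0038). Libraries of a group lay close together, and Dnmt1 was the only one of the 42 whose distal call held in all 20 alternative settings. Uhrf1, which brings DNMT1 to newly copied DNA, rose by 0.74 in the bridge (SE 0.12, adjusted p = 0.0033) and had 0.20 in the distal stump (adjusted p = 0.36).

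Of the 4 regulators of S-phase entry 3 rose in the bridge and 0 in the distal stump. The shares over all tested genes were 7.81% and 4.45%. Ccne1 (chromosome 7, 38097984 to 38107534), cyclin E1, had the largest log2 fold change of the 42 genes. It was at 5.99, 4.32 and 5.81 CPM in the CTL bridge and 11.1, 10.5 and 11.97 in the Nf1 KO bridge (log2 fold change 1.06 with an SE of 0.14, adjusted p = 0.0012). The lowest Nf1 KO bridge library was clearly above the highest CTL bridge library. In the distal stump Ccne1 was at 8.48, 7.57 and 7.48 CPM in CTL and 9.39, 9.09 and 11.1 in Nf1 KO, without overlap but short of the threshold (log2 fold change 0.33 with an SE of 0.13, adjusted p = 0.17). Ccne2, cyclin E2, stood higher per kilobase, at 6.10 against 4.29 CPM per kilobase. Its bridge values were 18.7, 15.5 and 15.1 CPM in CTL and 20.2, 21.7 and 22.9 in Nf1 KO (log2 fold change 0.40 with an SE of 0.10, adjusted p = 0.029), a call lost in 6 of 20 settings. Its distal values, 17.7, 15.1 and 16.4 and 19.01, 16.8 and 20.8, overlapped (log2 fold change 0.20 with an SE of 0.10, adjusted p = 0.29). The ratio of Ccne1 to Ccne2 was 0.280 to 0.384 in the CTL bridge and 0.486 to 0.550 in the Nf1 KO bridge, and 0.457 to 0.500 and 0.494 to 0.541 in the distal groups. E2f1, an activating E2F factor, was at 7.42, 8.32 and 8.68 CPM in the CTL bridge and 11.2, 10.5 and 11.1 in the Nf1 KO bridge (log2 fold change 0.42 with an SE of 0.09, adjusted p = 0.012). Its distal values were 9.96, 10.9 and 9.49 CPM in CTL and 11.2, 12.9 and 12.3 in Nf1 KO (log2 fold change 0.26 with an SE of 0.09, adjusted p = 0.12). The E2f1 groups did not overlap in either region. E2f2 had 0.40 in the bridge (SE 0.20, adjusted p = 0.22).

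The genes that rose in the bridge ran from 1.06 CPM per kilobase, in Cdc6, to 16.7, in Tk1. Across the 42 genes, CPM per kilobase and the log2 fold change in the bridge had a Spearman rho of -0.305, a description over genes. Among the 21 less abundant genes 14 rose, with a median log2 fold change of 0.50. Among the 21 more abundant ones 13 rose, with a median of 0.34. The share over all tested genes was 7.81%. The 4 most abundant per kilobase, Pcna, Gins4, Rfc4 and Mcm7, were all without a call in the bridge.

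**Figure D4:**
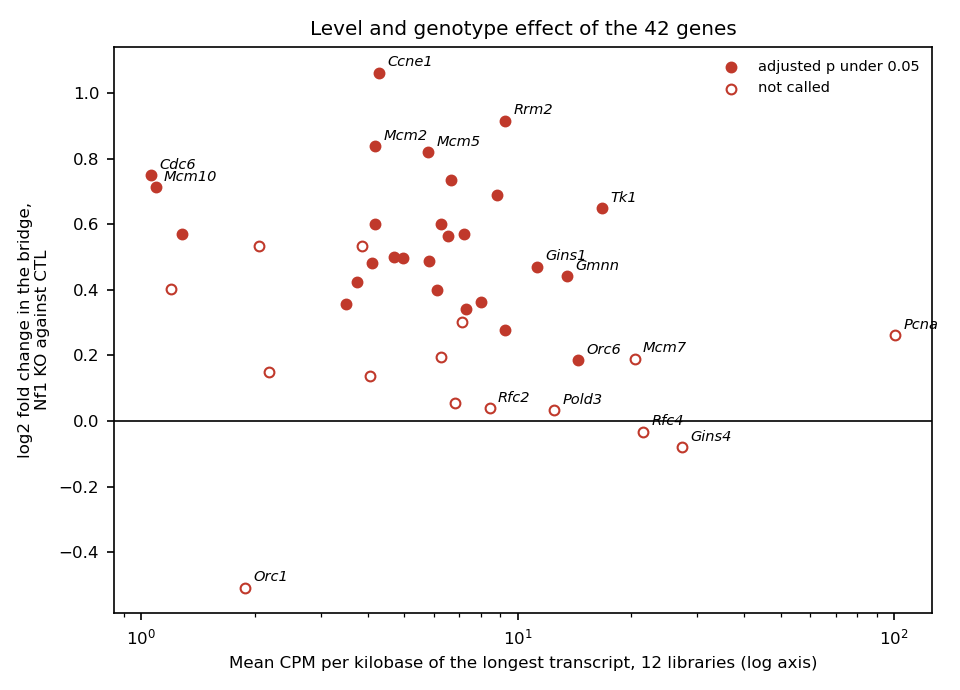
The log2 fold change of Nf1 KO against CTL in the bridge is plotted against the mean CPM per kilobase of the longest transcript (log axis) for the 42 genes, filled where the adjusted p was under 0.05. The 4 points farthest to the right, from 20.5 to 100.9, are open and lie between -0.08 and 0.26.

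Between the regions, which share their libraries with the genotype comparisons, the CTL bridge was the lower one. Cell type markers differed there too. In CTL mice 4 of 7 Schwann cell and 3 of 6 macrophage genes were lower in the bridge, and 4 of 6 fibroblast genes higher. The 6 skeletal muscle genes had a median log2 difference of 5.01, with 0 called. The part of these markers in the result was not tested. In CTL mice 0 of the 42 genes were higher and 6 lower in the bridge than in the distal stump, against 5.15% and 4.71% of all tested genes, with a median log2 difference of -0.19 against -0.00086. The 6 were Uhrf1 (-0.56, SE 0.12, adjusted p = 0.016), Ccne1 (-0.55, adjusted p = 0.031), Gins1 (-0.48, adjusted p = 0.037), Rrm2 (-0.38, adjusted p = 0.013), Mcm5 (-0.36, adjusted p = 0.040) and Dnmt1 (-0.23, adjusted p = 0.023). In 15 genes every CTL bridge library was below every CTL distal library, a pattern of 13.9% of all tested genes. Each of the 6 calls was lost in at least 4 of 20 settings. The number of calls was 0 without CTL bridge 1 or without CTL distal stump 1, 1 without CTL bridge 2 or without CTL distal stump 2, 12 without CTL distal stump 3, and 2 without the muscle-rich CTL bridge libraries 1 and 3. Of all tested genes 1.36% to 4.95% were lower with 1 library left out and 1.44% without both.

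Between the regions of Nf1 KO mice the genes were called no more often than all tested genes. There 3 genes (7.14%) were higher in the bridge, near the 7.78% of all tested genes, and 1 was lower, against 7.41%. The median log2 difference was 0.02 against 0.0042. Mcm10 (0.48, SE 0.14, adjusted p = 0.038), Mcm4 (0.39, SE 0.08, adjusted p = 0.0088) and Rrm2 (0.39, SE 0.07, adjusted p = 0.0065) were higher in the bridge. Gins4 was lower there (-0.22, SE 0.07, adjusted p = 0.048), a call lost in 15 of 20 settings, and that of Mcm10 was lost in 12. Same-numbered bridge and distal libraries of Nf1 KO mice deviated together, with correlations of 0.115 to 0.266. Same-numbered pairs across genotypes reached 0.239. With the replicate number as a block the adjusted p was 0.072 for Mcm10 and 0.080 for Gins4, so that 2 genes, Mcm4 and Rrm2, were higher and 0 lower, against 6.75% and 6.08% of all tested genes. Rrm2 is the gene that was lower in the bridge of CTL mice and higher in the bridge of Nf1 KO mice. Of the markers in Nf1 KO mice, 6 of 7 Schwann cell and 3 of 6 macrophage genes were lower in the bridge. Higher there were 5 of 6 endothelial and 3 of 6 fibroblast genes. The part of these markers in the result was not tested.

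Whether the genotype effect differs between bridge and distal stump was tested as an interaction. With edgeR, 0 of the 42 genes and 0% of all tested genes passed. At an unadjusted p under 0.05 there were 17 of the 42 and 2534 of all 19189 genes. The median difference of the log2 fold changes, bridge minus distal stump, was 0.18 against 0.0021 over all tested genes. Rrm2 had the smallest adjusted p, with a difference of 0.76 (SE 0.10, adjusted p = 0.087). DESeq2 called 6 of the 42, Mcm4, Mcm6, Rrm1, Rrm2 and Ccne1 with a larger effect in the bridge and Gins4 with a larger effect in the distal stump, where it called 1.06% of all tested genes in the first direction and 1.27% in the second. For Rrm2 DESeq2 gave 0.76 (SE 0.13, adjusted p = 1.8e-05), and for Gins4 -0.40 (SE 0.11, adjusted p = 0.023). The smaller number of calls in the distal stump is therefore not shown by edgeR to be a different effect, gene by gene.

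Other genes of the replication pathway were listed by function. Of all tested genes 7.81% were higher and 6.76% lower in the bridge, and 4.45% higher and 3.69% lower in the distal stump. Of 24 other replication factors 7 rose in the bridge and 0 fell, with a median log2 fold change of 0.14. Wdhd1, a fork protein that links the helicase to polymerase alpha, was at 6.55, 6.85 and 6.79 CPM in the CTL bridge and 9.89, 9.23 and 9.70 in the Nf1 KO bridge (log2 fold change 0.51 with an SE of 0.07, adjusted p = 0.0019). Dna2, a nuclease of Okazaki fragment processing, rose by 0.61 (SE 0.09, adjusted p = 0.0022). The others were Dbf4, Ticrr, Topbp1, Mcmbp, lost in 7 of 20 settings, and Cdc7, lost in 12. In the distal stump 1 of the 24 rose (4.17%), near the share over all tested genes. That gene was Wdhd1, with a distal call lost in 10 of 20 settings. Of 10 fork protection and checkpoint genes 1 rose in the bridge (10%), near the share over all tested genes. It was Clspn, which encodes the checkpoint mediator claspin (log2 fold change 0.75 with an SE of 0.13, adjusted p = 0.0047). Atrip, with the next smallest p, had -0.24 (adjusted p = 0.092). Of 13 further nucleotide metabolism genes 4 rose, among them the deoxycytidine kinase gene Dck (0.71, SE 0.08, adjusted p = 0.00082). Of 7 genes of chromatin assembly behind the fork 5 rose, with the smallest p for Slbp, which binds histone mRNA (0.47, SE 0.07, adjusted p = 0.0020), and the histone chaperone gene Nasp (0.31, SE 0.06, adjusted p = 0.0076). Slbp, Nasp and the chaperone gene Asf1b were also higher in the distal stump, with calls lost in 7, 6 and 10 of 20 settings. Of 15 genes of the E2F and RB families and S-phase kinases 4 rose in the bridge, Ccna2, E2f8, Rbl1, lost in 8 of 20 settings, and Tfdp1, lost in 10. Cyclin A2, encoded by Ccna2, rose from 24.5, 23.5 and 27.6 CPM to 48.99, 43.2 and 52.4 (log2 fold change 0.93 with an SE of 0.08, adjusted p = 0.00023), and the repressor E2f8 from 2.15, 2.92 and 2.77 to 5.42, 6.15 and 5.64 (log2 fold change 1.13 with an SE of 0.17, adjusted p = 0.0024). Distally E2f3 (0.85, adjusted p = 0.032) and Cdc25a (0.45, adjusted p = 0.0092) were higher, and E2f7 (-0.36, adjusted p = 0.035) and Rbl2 (-0.26, adjusted p = 0.023) lower. Those calls were lost in 8, 1, 13 and 6 of 20 settings, in that order.

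The 20 genes listed under mitosis had the larger median. All 20 rose in the bridge, where 7.81% of all tested genes were higher. Their median log2 fold change there was 0.87, against 0.46 for the 42 genes. In the distal stump 2 of the 20 (10%) rose, against 4.45% of all tested genes, and the medians were 0.29 and 0.20. The 2 smallest p in the bridge were those of the spindle checkpoint kinase gene Ttk (1.07, SE 0.10) and the cyclin B2 gene Ccnb2 (1.09, SE 0.11). The summed CPM of the 42 replication genes was 2.37 to 2.504 times that of the mitosis genes in the CTL bridge and 1.68 to 1.78 times in the Nf1 KO bridge. The distal ratio was 2.09 to 2.37 in CTL and 2.06 to 2.15 in Nf1 KO. The bridge ratios did not overlap and the distal ratios did.

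**Figure D5:**
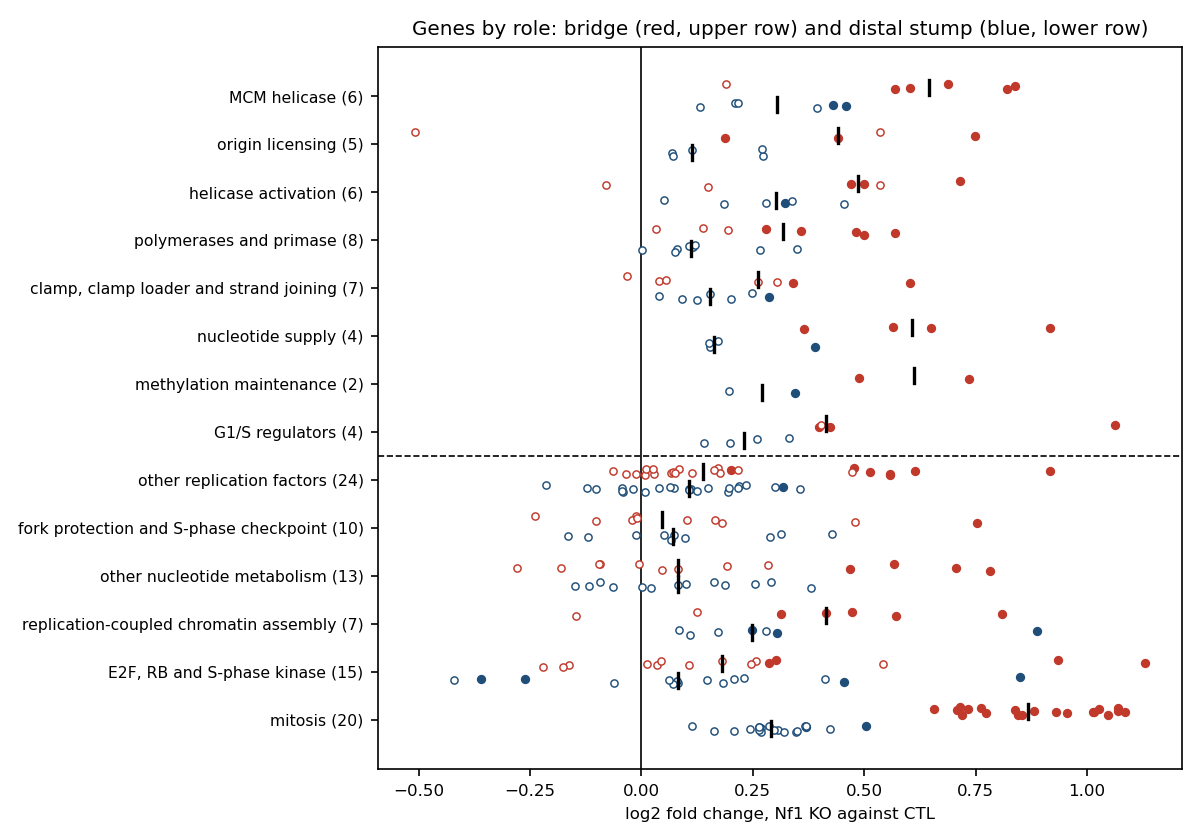
Each point is the log2 fold change of Nf1 KO against CTL for 1 gene, by role of the 42 genes (above the dashed line) and by the other lists (below it), red for the bridge and blue for the distal stump, filled where the adjusted p was under 0.05, with the number of genes in brackets. Black bars are medians, which in the bridge run from 0.26 to 0.65 for the roles and reach 0.87 for mitosis.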

How the data were processed

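Total RNA of nerve fragments was depleted of ribosomal RNA and made into libraries with a directional kit and 15 PCR cycles, per the labels' protocols. Per the submitters' processing notes, the build was mm10, and cutadapt 1.2.1, CASAVA 1.8.2 and DESeq2 were used. How reads were aligned and counted, and whether by strand, is not given here. One deposited table holds estimated counts of 30452 genes in 12 libraries. All are whole numbers, so none was rounded, and library totals differ. Read intervals and floors cover counting error only.

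Groups came from the labels. All 12 libraries entered 1 edgeR 4.0.16 model of the 4 groups in R 4.3.3 (filterByExpr, TMM, glmQLFit, glmQLFTest, Benjamini-Hochberg adjustment over all 19189 tested genes, threshold 0.05). A gene is said to have risen or fallen when its adjusted p was under 0.05. The SE was taken from the log2 fold change and edgeR's F statistic. The procedure was tested on simulated counts. The p-values measure the spread between pooled samples. DESeq2 1.42.0, other scaling and filters, single libraries left out, the groups compared alone, a replicate block and a Y-linked covariate were alternatives. Replicate numbers are not stated to pair samples. Deviations of same-numbered samples correlated between -0.13 and 0.27 over 18 pairs, over 0.1 in 6, with a median of -0.0089. Among 36 pairs with different numbers 4 were over 0.1, with a median of -0.0076. CTL bridge 2 and Nf1 KO distal stump 2, a same-numbered pair across genotypes, had 0.239. All 3 same-numbered pairs of Nf1 KO bridge and distal libraries were over 0.1 (0.266, 0.115 and 0.158). The blocked values therefore stand beside that comparison, from a block shared by all 4 groups. In the other comparisons numbers were not treated as pairs.

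Gene positions, transcript lengths and overlaps come from GENCODE M21 (GRCm38), which held all 42 genes, with longest transcripts of 1087 to 7163 bases. Promoters come from RefSeq. No window was held for Ccne2, Gins1, Pole, Mcm4, Gmnn, Rfc2, Gins2, Gins4 and Prim2. The genes, their roles and the other lists were chosen with earlier results of these data known. Library values are given, within each role, for the gene with the highest mean CPM and those with the smallest p in each region, and from each other list the 2 genes with the smallest p in the bridge are named. Orc1 and the ratios were added after their values were seen.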

Additional observations from a re-analysis of the deposited data

How the results depend on the processing

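The number of the 42 genes higher in the Nf1 KO bridge was 19 to 28 with 1 library left out (4.35% to 8.11% of all genes), 28 with DESeq2 (9.46%), 21 with the bridge libraries alone (7.10%), 23 with the Y-linked covariate (6.10%) and 11 without CTL bridge 1 and 3 together (1.94%), which leaves 1 CTL bridge library whose spread is assumed to be that of the other groups. The median log2 fold change was 0.38 to 0.47 with 1 library left out, lowest without CTL bridge 1. Ccne1, Dnmt1, Lig1, Mcm2, Mcm4, Mcm5, Mcm6, Rrm1, Rrm2, Tk1 and Uhrf1 were called higher in the bridge in all 20 settings. The distal count was 1 to 6 with 1 library left out (2.58% to 4.22%) and 3 with the distal libraries alone (2.59%). Between regions in CTL the number lower was 0 to 12 with 1 library left out (1.36% to 4.95%), 0 with the CTL libraries alone (1.94%) and 2 without CTL bridge 1 and 3 (1.44%). In Nf1 KO it was 0 to 1 with 1 library left out (3.65% to 7.30%), and 0 with no low-count filter (4.86%), with the Nf1 KO libraries alone (6.14%) and without CTL bridge 1 and 3 (5.95%). The interaction gave 5 higher and 1 lower with DESeq2 (1.06% and 1.27%), and could not be fitted on fewer than its 4 groups. The causes were not tested. With the replicate block, 23 genes were higher in the bridge (6.88%) and 4 in the distal stump (3.63%), 3 were lower between regions in CTL (3.57%), 2 were higher (6.75%) and 0 lower (6.08%) in Nf1 KO, and 0 passed the interaction.

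In the genotype comparisons signs changed only for genes without a call there. Without CTL bridge 1 and 3, the bridge values were 0.13 for Orc1, -0.13 for Pold3 and -0.010 for Rfc5. The distal value of Pold3 was -0.0019 with the stricter filter, -0.0045 with DESeq2 size factors in edgeR and -0.0049 with the DESeq2 test. With 1 library left out, the bridge ranges were -0.046 to 0.12 for Pold3, -0.00032 to 0.10 for Rfc2, -0.11 to 0.11 for Rfc4 and -0.018 to 0.12 for Rfc5, and the distal ranges -0.13 to 0.21 for Cdt1, -0.032 to 0.44 for E2f2, -0.044 to 0.11 for Gins1, -0.12 to 0.25 for Orc1, -0.098 to 0.076 for Pold3, -0.0073 to 0.22 for Pole and -0.027 to 0.092 for Rfc4.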
